A study of Mus musculus with 12 samples.

Results

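The enzymes described here are 9 hydrolases of the apical membrane of the gut epithelium, taken by gene symbol from the 23790 genes of the deposited tables: the peptidases Enpep, Anpep, Dpp4, Ace, Mep1a and Mep1b, the phosphatase Alpi, and the disaccharidases Sis and Lct. They were followed in RNA-seq of mouse colonocytes, the absorptive epithelial cells of the colon. The 12 libraries form 4 groups of 3, made of WT or C15ORF48/miR-147 KO cells of mice that were either left untreated or given 3% dextran sodium sulfate (DSS) for 3 days. DSS is a sulfated polysaccharide that damages the lining of the colon. C15ORF48 and miR-147 share a locus, and the study asked how that locus controls gut inflammation. The labels give no age, sex or strain of the mice, no detail of the knockout allele, and no word on whether replicates are separate animals. The p-values therefore measure only the spread between these libraries, which may be technical. The treatment protocol text names DSS for all 12 libraries, and the titles and the treatment field, which reads none for 6 of them, were followed.

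The brush border is the carpet of microvilli on the lumen side of an enterocyte, and the hydrolases anchored in it carry out the last step of digestion, next to the transporters that take up the products. Aminopeptidases and dipeptidyl peptidases trim peptides, meprins cut larger proteins and mucins, disaccharidases split sugars, and intestinal alkaline phosphatase removes phosphate from nucleotides and from bacterial lipopolysaccharide. Most of these enzymes are best known from the small intestine, and colonocytes carry a smaller, different set in which meprins are prominent. Processing of angiotensin is also known from this membrane, with Ace making angiotensin II and Enpep removing its first residue.

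The 2 deposited tables, untreated and DSS, were normalised separately by the authors and give RPKM, a read count scaled by gene length and by library depth. Whole reads could be recovered from the steps of the values, and they came to between 20606918 and 26839250 in the untreated libraries and between 12621697 and 16707030 in the DSS libraries. The mouse gene of C15ORF48, AA467197, held 5851 to 6493 reads in the WT untreated libraries against 52 to 89 in the KO untreated libraries, and 4013 to 5304 against 53 to 90 under DSS. The 10 colonocyte markers summed to 7139 RPKM or more in every library, and none of them was at 0 in any group. The 6 endothelial markers summed to at most 2.29 RPKM and the 5 B cell and plasma cell markers to at most 0.571 RPKM. The 7 goblet cell markers summed to between 7756 and 17002 RPKM, and the 5 enteroendocrine markers to between 322 and 528 RPKM. In WT DSS libraries 1, 2 and 3 the goblet sums were 10891, 9441 and 16655 RPKM. They were above the colonocyte sums of 9652, 7139 and 12536 RPKM. By these markers the libraries were thus not of absorptive cells alone.

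The promoters of Enpep, Alpi, Sis and Ace are shown because these 4 genes had the largest interaction estimates in size. The first 3 were lower in KO cells of untreated mice and higher in KO cells under DSS by their means, as were Mep1a and Mep1b, while Ace stood the other way. Each runs from 250 bases before the RefSeq start of transcription through the first 50 bases of the transcript, on GRCm38.p6, 5′ to 3′ on the strand of the gene. Capitals mark the matches of 5 short motifs, each searched on both strands. TTTAT is the core of the sites that CDX homeobox proteins bind. The letters GTTAAT are part of the longer palindrome to which HNF1 proteins bind. The letters AGATAA were searched as a site of the GATA zinc finger family. CAAAGTCCA was searched as a site of HNF4, a nuclear receptor. The letters TATAAA were searched as the core promoter element that places the start. Factors of the first 4 kinds are the classical regulators of enterocyte hydrolase genes.

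Enpep, chr3:129332700-129332999, minus strand: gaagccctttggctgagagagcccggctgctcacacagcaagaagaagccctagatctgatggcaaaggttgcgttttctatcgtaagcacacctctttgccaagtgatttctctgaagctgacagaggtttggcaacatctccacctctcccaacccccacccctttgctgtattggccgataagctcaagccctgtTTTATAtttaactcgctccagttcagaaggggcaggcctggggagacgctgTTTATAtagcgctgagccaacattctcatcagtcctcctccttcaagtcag
Alpi, chr1:87101557-87101856, minus strand: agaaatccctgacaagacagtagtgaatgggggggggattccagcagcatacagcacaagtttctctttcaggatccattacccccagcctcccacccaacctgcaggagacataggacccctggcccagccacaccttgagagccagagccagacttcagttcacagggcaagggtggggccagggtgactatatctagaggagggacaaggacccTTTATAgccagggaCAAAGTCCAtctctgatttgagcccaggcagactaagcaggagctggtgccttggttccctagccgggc
Sis, chr3:72967814-72968113, minus strand: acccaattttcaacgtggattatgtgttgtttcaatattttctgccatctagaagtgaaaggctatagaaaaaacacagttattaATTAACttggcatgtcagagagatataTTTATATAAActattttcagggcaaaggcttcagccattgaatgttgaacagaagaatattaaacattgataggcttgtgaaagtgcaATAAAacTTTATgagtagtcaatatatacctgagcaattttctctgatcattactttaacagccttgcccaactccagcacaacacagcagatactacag
Ace, chr11:105967698-105967997, plus strand: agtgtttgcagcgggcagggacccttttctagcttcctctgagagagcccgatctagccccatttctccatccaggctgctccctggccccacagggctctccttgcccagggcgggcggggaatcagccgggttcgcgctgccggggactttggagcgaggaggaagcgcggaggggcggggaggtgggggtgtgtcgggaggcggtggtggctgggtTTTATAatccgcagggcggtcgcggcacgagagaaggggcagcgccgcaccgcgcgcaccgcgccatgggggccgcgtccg

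RefSeq gave promoters for 8 of the 9 genes, 9 promoters in all since Ace has a pair of starts, and Mep1b was not matched. TTTAT stood in 7 of the 9 and in 40.0% of 32851 promoters of the same length. TATAAA stood in 5 of the 9 and in 13.6% of all promoters, and each of its matches overlapped a TTTAT match on the other strand, because the letters of the pair overlap. Counting the start as base 0, Alpi held TTTAT from base -33 to -29, and Ace from -31 to -27. Enpep held it from -52 to -48 and again across the start, from -1 to 3. Sis held 4 TTTAT matches, between -138 and -39, and the only GTTAAT match, from -165 to -160. Those letters stood in 7.10% of all promoters. Alpi held the only CAAAGTCCA match, from -19 to -11, and 0.475% of all promoters held one. AGATAA stood in 2 of the 9 promoters, those of Dpp4 and Lct, against 11.2% of all. Enpep and Ace, whose genotype differences pointed in opposite ways, thus share the TTTATA run and differ in its distance from the start. Alpi, whose differences pointed the way of Enpep, held the run close to its place in Ace. A part of the motifs in the differences was not tested.

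Per length of transcript, the meprins were the most abundant of the 9 in every group. Mep1a, which encodes the secreted alpha subunit of the metalloprotease meprin, had a mean level of 235 RPKM ± 30.1 (SD, n = 3) in WT untreated cells, and Mep1b, the membrane-anchored beta subunit, 93.5 ± 7.002. Alpi, intestinal alkaline phosphatase, followed at 22.6 ± 6.25 RPKM and Dpp4, a dipeptidyl peptidase that inactivates incretin hormones, at 11.8 ± 0.427. The values of these 4 genes did not overlap with the next lower gene in WT untreated cells. Ace at 6.69 ± 1.22, Enpep at 5.37 ± 0.463, Sis (sucrase-isomaltase) at 5.27 ± 1.07 and Anpep (aminopeptidase N) at 5.03 ± 1.20 RPKM overlapped with their neighbours and cannot be ranked beyond their spread. Lct, the lactase of suckling small intestine, held 0 to 2 reads per library and 2 or 3 reads per group, so no fold is given for it. The other 8 genes passed the filter for testing, which asked that 3 or more of the libraries compared reach an RPKM of 1. In WT DSS cells the mean of Enpep was 0.903 ± 0.770 RPKM, the lowest mean of the 8, and its range overlapped with that of Anpep, the next higher. The mean of Dpp4 was above that of Alpi there, with overlapping ranges.

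**Figure D1:**
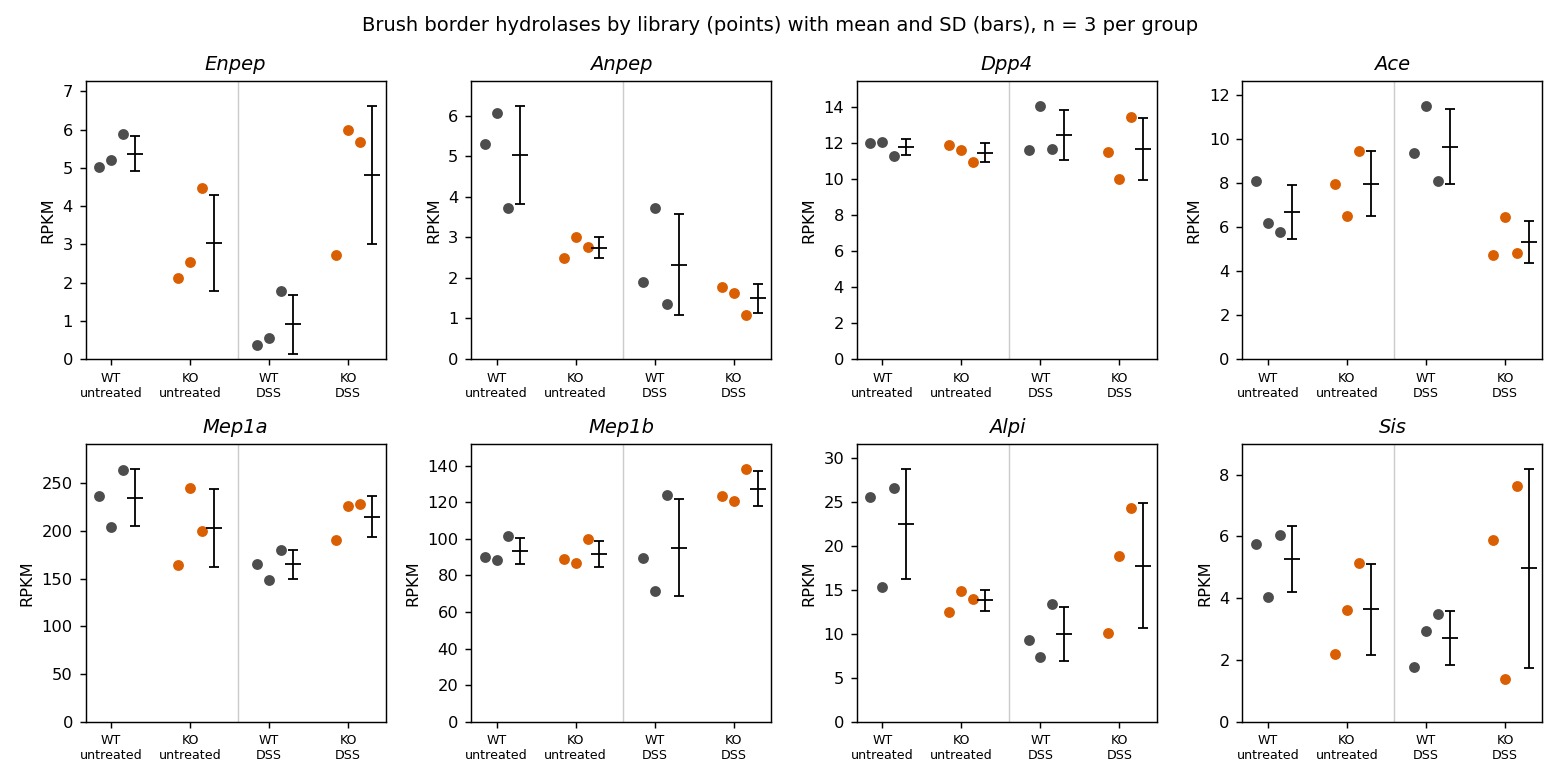
RPKM of 8 brush border hydrolases (y axes, each from 0) in the 4 groups (x axes); points are libraries in order of their number, and the bar beside each group is its mean with SD, n = 3. The line divides the tables, which were normalised separately; Enpep sits at 5.01 to 5.89 RPKM in WT untreated libraries and at 0.376 to 1.79 in WT DSS libraries, and Lct, with 2 or 3 reads per group, is not drawn.

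Enpep encodes aminopeptidase A, which removes acidic residues from the N terminus of peptides. It lies at chr3:129269175-129332720 on the minus strand of GRCm38 with 20 exons in GENCODE vM21. Its level was 5.01, 5.21 and 5.89 RPKM in WT untreated libraries 1, 2 and 3, and 2.12, 2.54 and 4.47 RPKM in KO untreated libraries 2, 4 and 5. Under DSS it was 0.376, 0.547 and 1.79 RPKM in WT libraries 1, 2 and 3, and 2.72, 5.99 and 5.69 RPKM in KO libraries 1, 2 and 3. The groups did not overlap in either table, and the order was opposite: every KO library lay below every WT library without DSS and above every WT library with it. The WT DSS values rest on 25, 39 and 121 reads and the KO DSS values on 145, 403 and 366 reads. The ratio of the means was 1.76 in favour of WT in the untreated table and 5.31 in favour of KO in the DSS table.

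On the log2(RPKM + 1) scale, which understates changes of low genes, the KO minus WT difference of Enpep was -0.70 (SE 0.20, n = 3 per group) in untreated mice, with a limma adjusted p of 0.497, and 1.62 (SE 0.31) under DSS, with a limma adjusted p of 0.0559. Neither difference passed the threshold of 0.05. Enpep passed the filter in the DSS table through its 3 KO libraries and 1 WT library. The difference between the 2 differences, the interaction of genotype and DSS, was 2.32 (SE 0.41, 95% interval 1.42 to 3.22, n = 3 in each of 4 groups), and it passed with a limma adjusted p of 0.0352. Among 11306 genes tested, 1.40% were called in the interaction, 0.743% were called as higher, 3.00% had groups that overlapped in neither table and stood in opposite order, and 1.30% had the order of Enpep. Enpep was the only called gene of the 8. Since each table is a separate set of libraries, DSS and the library set cannot be told apart in the interaction. In a bulk sample, fewer cells of a type and less RNA per cell cannot be told apart either.

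The interaction of Enpep stayed between 2.12 and 3.50 over all 20 other settings, but its call depended on the libraries. The limma adjusted p was 0.0508, 0.0564 and 0.0591 without WT untreated library 1, 2 or 3, and 0.0976, 0.0580 and 0.0786 without KO untreated library 2, 4 or 5. It was 0.0831 and 0.0896 without WT DSS library 1 or 2 and 0.0850 without KO DSS library 3. The call held without WT DSS library 3 (0.0204), KO DSS library 1 (0.00846) or KO DSS library 2 (0.0449). With no filter on low values the adjusted p was 0.0751. The genotype difference under DSS, in turn, passed without WT DSS library 3, the WT library with the most Enpep (1.94, limma adjusted p 0.0404), and without KO DSS library 1, the KO library with the least (1.92, limma adjusted p 0.00934).

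**Figure D2:**
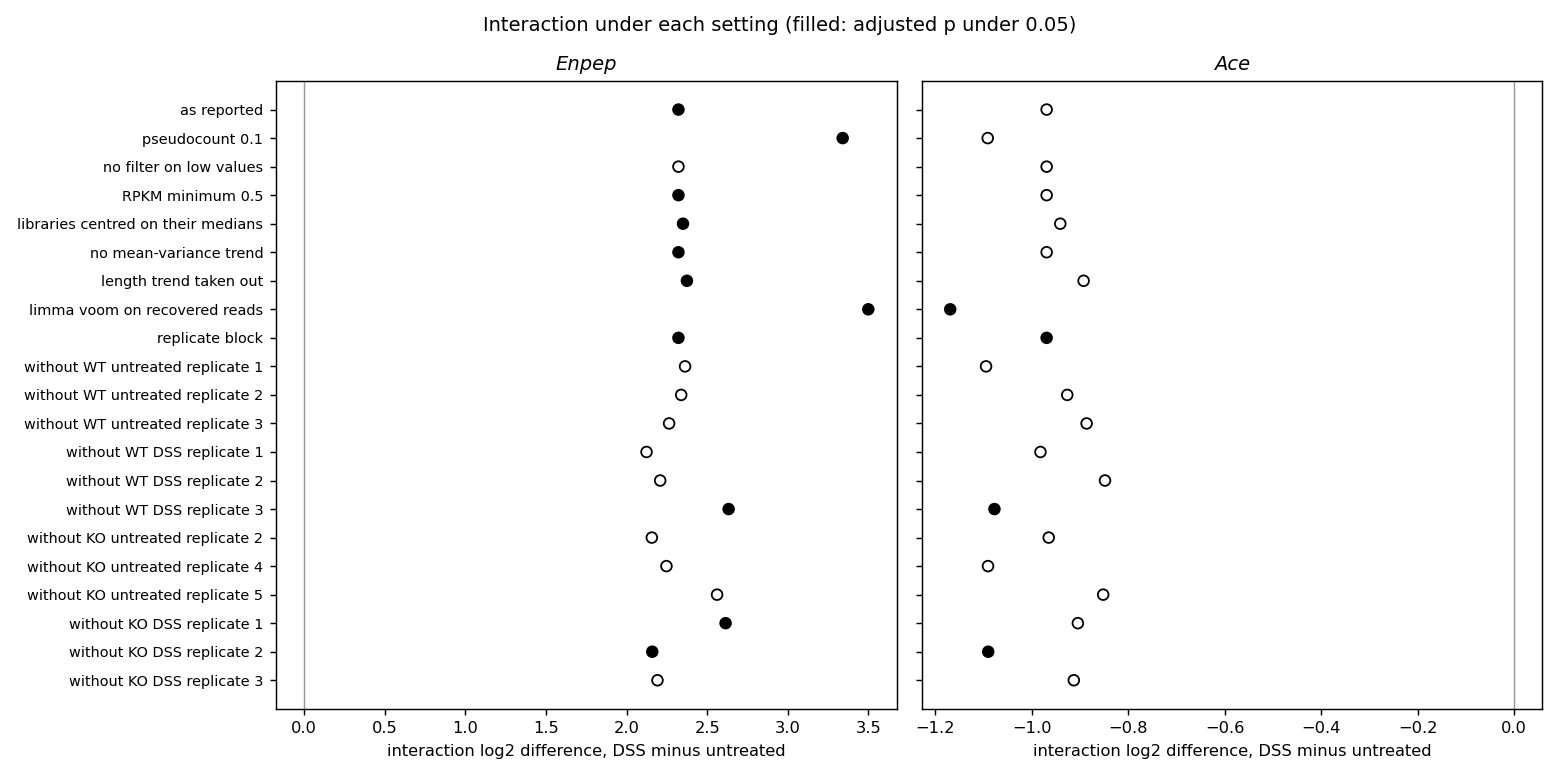
Interaction of genotype and DSS (x axes, log2 difference, DSS minus untreated) for Enpep and Ace under the reported setting and 20 others (y axis); filled points have an adjusted p under 0.05. Every Enpep value lies between 2.12 and 3.50 and every Ace value between -1.17 and -0.85, while the calls vary with the library left out.

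Ace encodes angiotensin-converting enzyme, a dipeptidyl carboxypeptidase, at chr11:105967945-105989964 on the plus strand with 25 exons. Its level was 8.08, 6.19 and 5.80 RPKM in WT untreated libraries 1, 2 and 3 and 7.95, 6.52 and 9.46 RPKM in KO untreated libraries 2, 4 and 5. Under DSS it was 9.39, 11.5 and 8.10 RPKM in the WT libraries and 4.75, 6.44 and 4.82 RPKM in the KO libraries. The untreated groups overlapped, and every KO DSS library lay below every WT DSS library. The KO minus WT difference was 0.22 (SE 0.15, limma adjusted p 0.659) in untreated mice and -0.75 (SE 0.16, limma adjusted p 0.0863) under DSS, and the interaction was -0.97 (SE 0.23, limma adjusted p 0.0633). None of the 3 passed. In the authors' deposited table the log2 fold change of Ace under DSS was -0.85 with a false discovery rate of 0.0357, so the gene passes there. The authors' deposited table gives Enpep under DSS a log2 fold change of 2.41 with a false discovery rate of 0.214, so that the order of Ace and Enpep by that rate is the reverse of the limma order. Gm11651, an antisense gene that overlaps Ace, averaged 0.0291 RPKM over the 12 libraries.

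The ratio of Ace to Enpep within a library, chosen after their values were seen, put the pair in a single figure per library. It ran from 0.985 to 1.61 in WT untreated, from 2.12 to 3.75 in KO untreated, from 4.53 to 24.98 in WT DSS and from 0.848 to 1.75 in KO DSS libraries. Under DSS the WT libraries thus held several times more Ace than Enpep transcript per length, and the KO libraries held about as much of each. The ranges of the genotypes did not overlap in either table. Both genes entered the choice of this ratio, so it carries no test.

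Anpep encodes aminopeptidase N, which removes neutral residues from the N terminus, and lies at chr7:79821803-79861059 on the minus strand with 21 exons. Its level was 5.29, 6.08 and 3.72 RPKM in WT untreated libraries 1, 2 and 3 and 2.48, 3.01 and 2.76 RPKM in KO untreated libraries 2, 4 and 5. Every KO untreated library lay below every WT untreated library, with a difference of -0.67 (SE 0.15, limma adjusted p 0.497, unadjusted p 0.00230 by limma). Under DSS the levels were 1.90, 3.73 and 1.36 RPKM in WT and 1.77, 1.63 and 1.08 RPKM in KO, which overlapped (difference -0.36, SE 0.25, limma adjusted p 0.422). In both tables the mean of Anpep was lower in KO, and the interaction, 0.30 with a 95% interval of -0.39 to 0.995, spans 0. Under DSS the KO mean was below the WT mean for Anpep and above it for Enpep, the other aminopeptidase.

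Alpi lies at chr1:87098002-87101606 on the minus strand with 11 exons. Its level was 25.7, 15.4 and 26.6 RPKM in WT untreated libraries 1, 2 and 3 and 12.5, 14.9 and 14.0 RPKM in KO untreated libraries 2, 4 and 5. Under DSS it was 9.34, 7.33 and 13.4 RPKM in WT and 10.1, 18.9 and 24.3 RPKM in KO. The untreated groups did not overlap, with KO lower, and the DSS groups overlapped through WT library 3 and KO library 1. The differences were -0.63 (SE 0.19, limma adjusted p 0.510) and 0.73 (SE 0.30, limma adjusted p 0.244), and the interaction was 1.36 (SE 0.40, limma adjusted p 0.106). Without KO DSS library 1 the difference under DSS was 1.06 (limma adjusted p 0.0360) and the interaction 1.70 (limma adjusted p 0.0196). Akp3 and Alppl2, related genes of the alkaline phosphatase family, had mean levels of at most 0.0332 and 0.172 RPKM in any group. How the authors' counting treated any reads they share with Alpi is not known.

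Sis lies at chr3:72888557-72967863 on the minus strand with 48 exons. Its level was 5.75, 4.04 and 6.03 RPKM in WT untreated and 2.18, 3.62 and 5.13 RPKM in KO untreated libraries. Under DSS it was 1.76, 2.94 and 3.48 RPKM in WT and 5.88, 1.40 and 7.63 RPKM in KO libraries 1, 2 and 3. KO DSS library 2 held the least Sis of the 6 DSS libraries while the other KO DSS libraries exceeded every WT DSS library, so the groups overlapped. That same library held the most Enpep of the DSS libraries. The differences of Sis were -0.47 (SE 0.23, limma adjusted p 0.577) and 0.52 (SE 0.42, limma adjusted p 0.498), and the interaction was 0.99 (SE 0.56, limma adjusted p 0.354).

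The ranges of both meprin subunits overlapped between the genotypes in untreated mice. Mep1a, at chr17:43474324-43502812 on the minus strand with 14 exons, stood at 237, 204 and 264 RPKM in WT untreated and 164, 246 and 201 RPKM in KO untreated libraries. Under DSS it stood at 166, 149 and 180 RPKM in WT and 191, 226 and 229 RPKM in KO libraries, which did not overlap. The difference under DSS was 0.38 (SE 0.15, limma adjusted p 0.227). Mep1b had a range of 88.7 to 102 RPKM in WT untreated, 86.7 to 99.8 in KO untreated, 71.7 to 124 in WT DSS and 121 to 138 RPKM in KO DSS libraries, and its difference under DSS was 0.45 (SE 0.19, limma adjusted p 0.256). The alpha subunit exceeded the beta subunit in all 12 libraries. The ratio of Mep1a to Mep1b was 2.30 to 2.62 in WT untreated, 1.84 to 2.83 in KO untreated, 1.45 to 2.08 in WT DSS and 1.54 to 1.88 in KO DSS libraries, and the genotypes overlapped in both tables.

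Dpp4, at chr2:62330073-62412231 on the minus strand with 26 exons, had the narrowest range of the 8 over the 12 libraries, relative to its level. Its level was 11.3 to 12.1 RPKM in WT untreated, 10.9 to 11.9 in KO untreated, 11.6 to 14.0 in WT DSS and 10.02 to 13.4 RPKM in KO DSS libraries. The 95% interval of its KO minus WT difference was -0.21 to 0.14 in untreated mice and -0.42 to 0.23 under DSS, on the log2 scale. The sign of these small differences turned to 0.04 and 0.09 when a trend with transcript length was taken out.

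**Figure D3:**
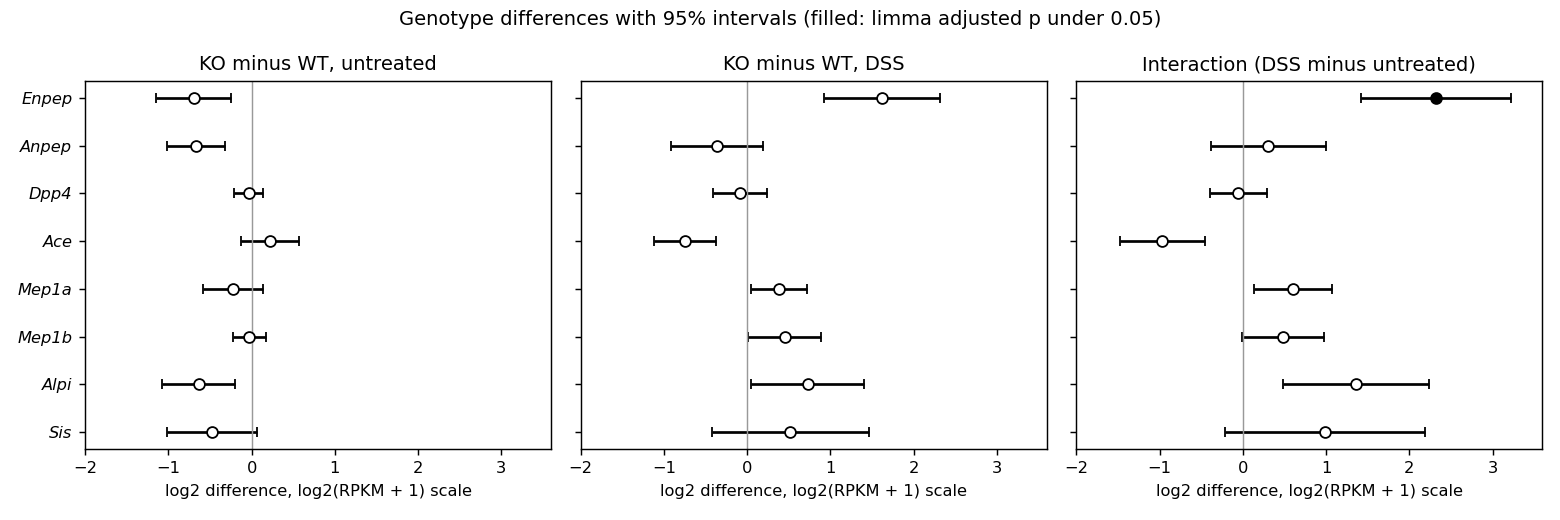
KO minus WT difference on the log2(RPKM + 1) scale (x axes) for 8 hydrolases (y axis) in untreated mice, under DSS, and the interaction; points are limma estimates with 95% intervals, from 3 libraries per group. The only filled point, an adjusted p under 0.05, is the interaction of Enpep at 2.32.

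Over the 8 genes tested, limma called 0 in untreated mice, where 0.0181% of 11072 genes were called, and 3 had an unadjusted p under 0.05, which 9.09% of all genes had. The KO libraries lay wholly below the WT libraries for 3 of the 8 (Enpep, Anpep and Alpi) and above for 0, against 7.68% and 8.32% of all genes. The median difference of the 8 was -0.35, beside 0.01 over all genes. Under DSS limma called 0 of the 8, where 0.764% of 10990 genes were called, and 5 had an unadjusted p under 0.05, against 18.7%. KO lay wholly above WT for Enpep and Mep1a and wholly below for Ace, against 11.1% and 11.9% of all genes, and the median was 0.42 beside -0.01. In the interaction, 4 of the 8 had an unadjusted p under 0.05, against 19.0%, and the median was 0.54 beside -0.00 over all genes. limma's voom on the recovered reads also called 0 of the 8 in each table and called Enpep and Ace in the interaction (Ace -1.17, adjusted p 0.0455). In the authors' deposited table, 0.00841% of genes in the untreated and 0.866% in the DSS comparison had a false discovery rate under 0.05, and Ace under DSS was the only one of the 9 among them.

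Levels of the same genotype were set side by side across the tables without a test, because the tables were normalised separately. In WT cells the mean of Enpep was 5.95 times lower in DSS than in untreated libraries, Alpi 2.25 times, Anpep 2.16 times and Sis 1.94 times, while Ace was 1.44 times higher. In KO cells the mean of Enpep was 1.58 times higher in DSS libraries, Sis 1.37 times and Alpi 1.29 times, while Ace was 1.49 times and Anpep 1.84 times lower. Dpp4 was within 1.06 times in both genotypes. Anpep was thus the gene that was lower in the DSS table in both genotypes by more than 1.5 times.

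Single libraries stood at the end of the range for several genes. KO untreated library 2 was the lowest untreated library for 5 of the 8 genes (Enpep, Anpep, Mep1a, Alpi and Sis), and WT untreated library 3 the highest for 5 (Enpep, Mep1a, Mep1b, Alpi and Sis). Under DSS, KO library 3 was the highest for 4 (Mep1a, Mep1b, Alpi and Sis). WT DSS library 2 was the highest for Anpep, Dpp4 and Ace and the lowest for Mep1a, Mep1b and Alpi, which places these genes at opposite ends of the same library.

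Other apical hydrolases, microvillus components, transporters of digestion products and transcription factors of enterocytes were examined as lists, with single genes of the angiotensin system beside them. Of 18 other apical hydrolases, 9 were tested and limma called 0 in any comparison, with 0 in untreated mice, 2 under DSS and 2 in the interaction at an unadjusted p under 0.05. The shares of all genes at that level were 9.09%, 18.7% and 19.0%. Mgam, the maltase-glucoamylase related to Sis, had group means between 36.8 and 42.0 RPKM, and Dpep1, a dipeptidase, between 168 and 223 RPKM. Ggt1, a gamma-glutamyltransferase that starts the breakdown of glutathione, was 5.55 ± 2.82 RPKM in WT DSS and 14.1 ± 7.64 RPKM in KO DSS libraries (log2 difference 1.11, limma adjusted p 0.229), and 13.9 ± 6.08 against 10.3 ± 4.23 RPKM in untreated mice, where its limma adjusted p was 0.722. The interaction of Ggt1 was 1.495 (limma adjusted p 0.224). In untreated mice Asah2, the neutral ceramidase, had the smallest p of the list (6.19 ± 0.404 against 5.23 ± 0.944 RPKM, limma adjusted p 0.605).

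All 15 microvillus genes were tested. Tmigd1, an adhesion protein of enterocytes, stood at 75.3 ± 29.2 RPKM in WT DSS and 216 ± 48.3 RPKM in KO DSS libraries. Its log2 difference under DSS passed (1.55, SE 0.27, limma adjusted p 0.0463), as did its interaction (1.88, SE 0.35, limma adjusted p 0.0356). Of all genes, 0.446% were called higher under DSS. It was lower by mean in KO untreated cells, 131 ± 23.6 against 164 ± 22.8 RPKM, with a limma adjusted p of 0.551. Pls1, an actin bundler, stood at 153 ± 10.3 RPKM in WT untreated and 134 ± 10.5 in KO untreated cells (limma adjusted p 0.563). None of the other 14 passed in any comparison. At an unadjusted p under 0.05 there were 0 microvillus genes in untreated mice, 5 under DSS and 3 in the interaction, against 9.09%, 18.7% and 19.0% of all genes. The call of Tmigd1 under DSS was lost without WT DSS library 1 or 2 or KO DSS library 3 (limma adjusted p 0.219, 0.209 and 0.191), with libraries centred on their medians (0.0504), with a length trend taken out (0.0655) and with no filter on low values (0.143). Its call in the interaction held in 3 of 12 fits that left out a library, with adjusted p from 0.0191 to 0.104 over all other settings.

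Among the transporters, 12 of 15 were tested. Slc1a1, which carries glutamate and aspartate, stood at 25.5 ± 4.38 RPKM in WT DSS and 13.2 ± 0.539 RPKM in KO DSS libraries (log2 difference -0.89, SE 0.14, limma adjusted p 0.0341). Slc36a1, a proton-coupled carrier of small amino acids, stood at 35.6 ± 8.45 RPKM in WT DSS and 17.4 ± 0.480 RPKM in KO DSS libraries (log2 difference -0.97, SE 0.16, limma adjusted p 0.0390). Both passed in the interaction (-0.93 and -1.46, limma adjusted p 0.0380 and 0.0364), where 0.655% of all genes were called lower, against 0.318% under DSS, and these calls each held in 4 of 12 fits that left out a library. Under DSS their calls held only without KO DSS library 1, of 6 such fits, and the adjusted p without another library ran from 0.0525 to 0.189 for Slc1a1 and from 0.0505 to 0.189 for Slc36a1. With no filter on low values these DSS calls were lost (limma adjusted p 0.132 and 0.139), and with a length trend taken out that of Slc36a1 was lost (0.0617). In untreated mice limma called 0 transporters and 2 had an unadjusted p under 0.05, Slc5a1, the sodium-glucose carrier (74.9 ± 3.40 against 87.3 ± 6.97 RPKM, limma adjusted p 0.525), and Slc36a1 (23.0 ± 7.83 against 31.8 ± 4.31 RPKM, limma adjusted p 0.540). At that level there were 5 of the 12 under DSS and 6 in the interaction. The shares of all genes were 9.09% in untreated mice, 18.7% under DSS and 19.0% in the interaction. Under DSS the transporters of amino acids that passed were thus lower in KO, as the mean of Ace was, while Enpep and Tmigd1 were higher.

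Of 15 transcription factors, 13 were tested in untreated mice and in the interaction and 12 under DSS, and limma called 0. At an unadjusted p under 0.05 there were 4, 4 and 5, against 9.09%, 19.0% and 18.7% of all genes. Klf5, a factor of proliferating epithelium, stood at 211 ± 31.4 RPKM in WT DSS and 148 ± 8.04 RPKM in KO DSS libraries, with an interaction of -0.68 (limma adjusted p 0.0596). Maf stood at 0.876 ± 0.0673 RPKM in WT DSS and 2.18 ± 0.959 RPKM in KO DSS libraries, with an interaction of 1.23 (limma adjusted p 0.0777). It reached at most 0.922 RPKM in WT DSS and at least 1.08 RPKM in KO DSS libraries. Maf thus passed the DSS filter through the KO libraries alone, and it is among the 5 counted under DSS. In untreated mice Hnf4g was 17.0 ± 1.95 RPKM in WT and 13.7 ± 0.608 in KO (limma adjusted p 0.510). Cdx1, one of the CDX proteins, stood at 238 ± 9.74 RPKM in WT untreated and 275 ± 10.5 in KO untreated libraries (limma adjusted p 0.518). Of the angiotensin system, Lnpep, an aminopeptidase, stood at 16.9 ± 3.16 RPKM in WT untreated and 12.98 ± 4.74 in KO untreated cells (limma adjusted p 0.611), with a log2 difference under DSS of -0.43 (limma adjusted p 0.342), and Agt, the precursor of the angiotensins, had an interaction of -0.22 (limma adjusted p 0.697). Ren1 and Agtr1b had 0 reads in the 12 libraries.

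**Figure D4:**
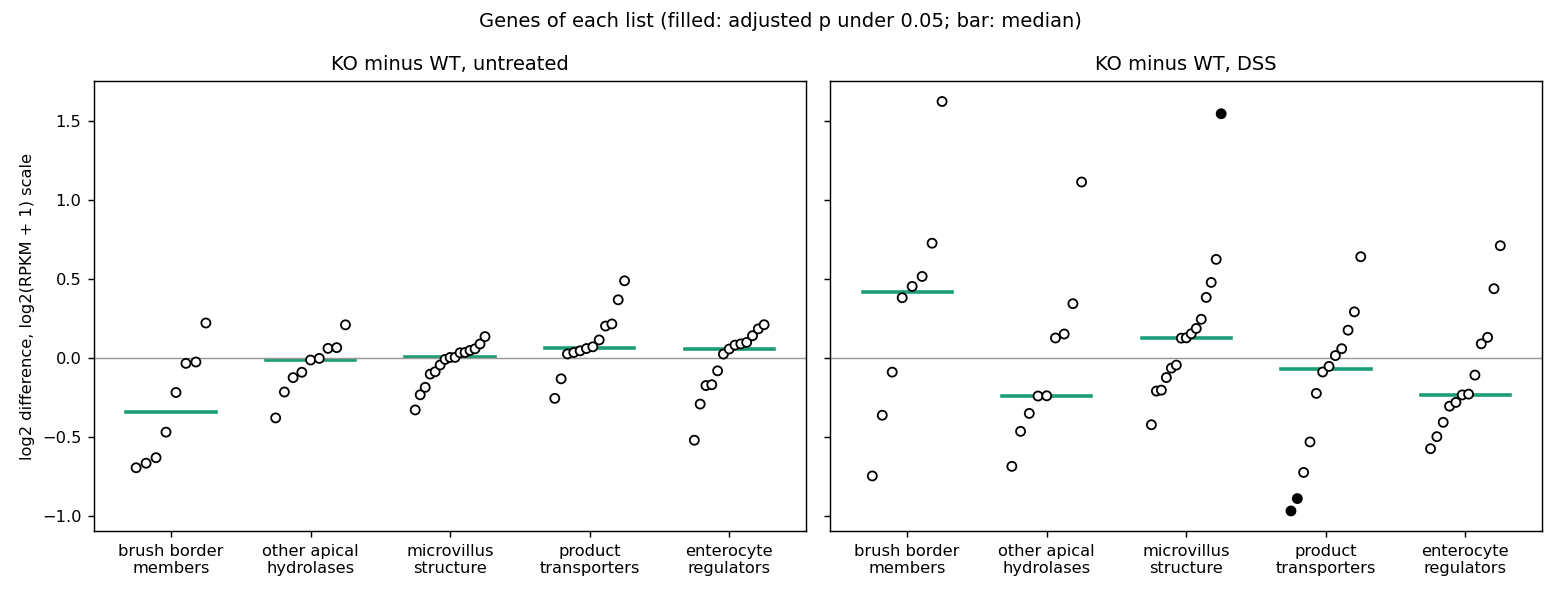
KO minus WT difference on the log2(RPKM + 1) scale (y axis) for the tested genes of 5 lists (x axes) in untreated mice and under DSS; each point is a gene in order of size, filled points have a limma adjusted p under 0.05, and green bars are list medians. The brush border genes have a median of -0.35 in untreated mice and 0.42 under DSS, and the filled points under DSS are Tmigd1, Slc1a1 and Slc36a1.

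Markers of position along the gut were set beside Enpep. The 7 HOX genes of distal colon, none at 0 in any group, summed to 239, 168 and 107 RPKM in WT untreated libraries 1, 2 and 3 and to 251, 194 and 185 RPKM in KO untreated libraries 2, 4 and 5. The untreated sums of the genotypes overlapped, unlike the values of Enpep. Under DSS the HOX genes summed to 238, 303 and 230 RPKM in WT and to 172, 105 and 106 RPKM in KO libraries, which did not overlap. Hoxb13 made up most of the sum, at 189 to 239 RPKM in WT DSS and 86.7 to 140 RPKM in KO DSS libraries. It did not pass under DSS (limma adjusted p 0.0690). Of 5 HOX genes tested, Hoxa13 was lower in KO DSS than in WT DSS cells (-0.82, limma adjusted p 0.0340). It passed in the interaction (-1.04, limma adjusted p 0.0342), and 5 of 5 were below 0 under DSS. Of all genes, 0.318% were called lower under DSS and 0.655% in the interaction, and the median difference under DSS was -0.01. The call of Hoxa13 under DSS was lost without WT DSS library 1 or 2 or KO DSS library 3 (limma adjusted p 0.189, 0.166 and 0.173) and with no filter on low values (0.132). The WT DSS library with the most Enpep, library 3, had the lowest HOX sum of its group, though close to that of library 1 (230 against 238 RPKM). Library 1 held the least Enpep of that group, but the highest HOX sum was in library 2 (303 RPKM). The KO DSS library with the least Enpep, library 1, had the highest of its group. In the untreated table, too, the library with the most Enpep in each group had the lowest HOX sum, WT library 3 and KO library 5.

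The 10 small intestinal enterocyte markers summed to 838 to 1023 RPKM in WT untreated, 705 to 800 in KO untreated, 372 to 622 in WT DSS and 879 to 1019 RPKM in KO DSS libraries, with no overlap between genotypes in either table. Fabp2, a fatty acid binding protein, made up most of the sum, at 305 to 534 RPKM in WT DSS and 773 to 899 RPKM in KO DSS libraries, whereas the defining small intestinal gene Apoa4 was at 0 in WT DSS libraries and at most 0.0565 RPKM in any library. Slc10a2, the ileal bile acid carrier, was higher in KO DSS than in WT DSS cells (1.06, limma adjusted p 0.0370). Slc10a2 and Fabp2 passed in the interaction (1.498 and 1.35, limma adjusted p 0.0356 for each). Of all genes, 0.446% were called higher under DSS and 0.743% in the interaction. The call of Slc10a2 under DSS held in 2 of 6 fits that left out a library. It was lost without WT DSS library 1, 2 or 3 or KO DSS library 3 (limma adjusted p 0.206, 0.209, 0.0550 and 0.173) and with no filter on low values (0.139). The untreated groups of Slc10a2 overlapped, unlike those of Enpep, with a WT minimum of 37.3 and a KO maximum of 40.4 RPKM. Of 7 tested genes of this list, 6 were below 0 in untreated mice, and under DSS 5 were above and 2 below 0. Rbp2, a retinol binding protein, stood the other way by its medians, 30.2 RPKM in WT and 36.6 in KO untreated, and 22.9 in WT DSS and 21.5 in KO DSS libraries. The part of position along the colon in the Enpep difference was not tested.

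The 10 colonocyte markers, Epcam and Krt8 among them, summed to 13203 to 19604 RPKM in WT untreated and 14305 to 18035 RPKM in KO untreated libraries. Their sums were 7139 to 12536 RPKM in WT DSS and 14702 to 19308 RPKM in KO DSS libraries. Under DSS limma called 0 of the 10, 2 had an unadjusted p under 0.05, and KO lay wholly above WT for 1. Of all genes, 18.7% had such a p and 11.1% had KO wholly above WT. The DSS sums did not overlap, and Car1, a carbonic anhydrase, made up much of them, at 3319 to 6793 RPKM in WT DSS and 9969 to 13367 RPKM in KO DSS libraries. The 8 macrophage and dendritic markers summed to 2.48 to 3.99 RPKM in WT DSS and 5.86 to 14.7 RPKM in KO DSS libraries. C1qa, a complement gene, was higher in KO DSS than in WT DSS cells (1.71, limma adjusted p 0.0340), where 0.446% of all genes were called higher. C1qa stood at 0.0574 to 0.327 RPKM in WT DSS and 1.83 to 4.92 RPKM in KO DSS libraries. Without DSS it stood at 1.85 to 5.18 RPKM in WT and 2.34 to 3.65 RPKM in KO libraries, so WT DSS was its lowest group. C1qb and C1qc reached at most 0.241 and 0.168 RPKM in WT untreated and 0.711 and 0.930 RPKM in KO DSS libraries. C1qa passed the DSS filter through the KO libraries alone, and it was not tested once one of them was left out. Its call was lost without WT DSS library 1, 2 or 3 (limma adjusted p 0.189, 0.166 and 0.0601), with a length trend taken out (0.0523) and with no filter on low values (0.138). The 5 neutrophil markers summed to 0.274 to 1.45 RPKM in WT DSS and 1.53 to 12.2 RPKM in KO DSS libraries, which did not overlap. Myeloid cells can carry Anpep, T cells Dpp4 and endothelium Ace. The 9 T cell markers summed to 15.3 to 28.8 RPKM in WT DSS and 25.3 to 44.0 RPKM in KO DSS libraries. The endothelial sum was 0.849 to 1.17 RPKM in WT DSS and 0.725 to 0.960 RPKM in KO DSS libraries, with Tie1 at 0 in both and Cdh5 at 0 in KO DSS. The 8 fibroblast and pericyte markers, a lineage that can carry Enpep, summed to 4.63 to 5.90 RPKM in WT DSS and 3.11 to 8.59 RPKM in KO DSS libraries, which overlapped. In WT untreated library 3 they summed to 30.7 RPKM, of which Dcn alone made up 23.6 RPKM. The part of these cells in the results was not tested.

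**Figure D5:**
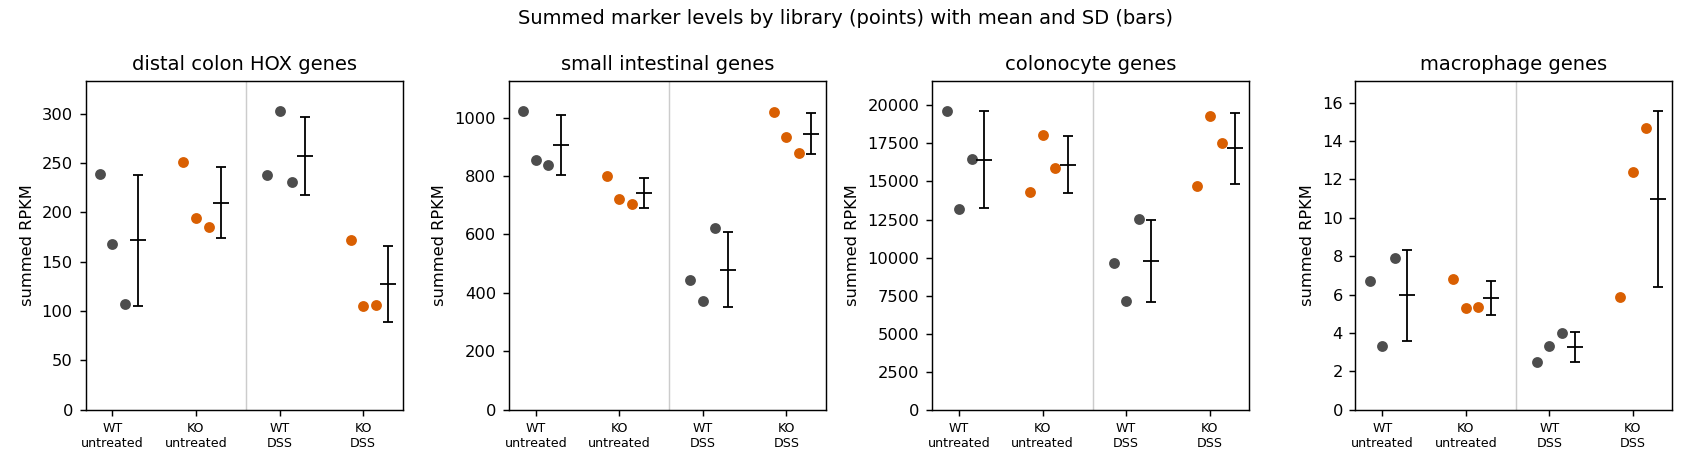
Summed RPKM (y axes, from 0) of 7 distal colon HOX genes, 10 small intestinal genes, 10 colonocyte genes and 8 macrophage genes in the 4 groups (x axes); points are libraries, bars are means with SD, n = 3, and the line divides the separately normalised tables. Under DSS the HOX sums are 230 to 303 in WT and 105 to 172 in KO libraries, the reverse of the order of Enpep.

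The genes most like each hydrolase were taken as the 2 with the highest Pearson r over the 12 libraries after the mean of each table was removed, among 10873 genes. The libraries share depth and composition, so r describes these libraries only. Enpep was most like Arl14 and Lrp12 (r 0.93 for each), and Ace most like Golm1 (r 0.99) and Itih5 (r 0.98). Itih5 had a mean of 82.5 RPKM in WT DSS and 44.2 in KO DSS libraries, and Arl14 15.4 and 26.1 RPKM. Alpi was most like Pxdc1 (r 0.95) and Slc19a2 (r 0.94), a thiamine carrier. Mep1a was most like Gramd3 and Tmem125 (r 0.93 for each), Mep1b like Blmh (r 0.94), a cytosolic aminopeptidase, and Tmem238l (r 0.92), and Anpep like Krit1 and Wbp4 (r 0.93 for each). Sis was most like Hpgd (r 0.92) and Aspa (r 0.90), and Dpp4 had the lowest best match, Cbx2 (r 0.86), then Prkar2b (r 0.83). None of the named matches was shared between members.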

How the data were processed

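Stranded RNA-seq of polyadenylated RNA was made from colonocytes with miRNeasy and KAPA mRNA HyperPrep kits, per the labels' protocols. Per the submitters' processing notes, TopHat2 2.1.1 and edgeR 3.30.3 were used on GRCm38 and mm10. No source used here names the read counter. The authors deposited an RPKM value per library, and a log2 fold change, a p-value and a false discovery rate per gene, per the file headers. Each table has 23794 lines. A spreadsheet had turned 26 names into dates, and 4 lines with a repeated date name were left out. Every sample column was mapped.

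Counts had been foreseen, and the RPKM unit called for limma (3.58.1, in R 4.3.3) instead, run on log2(RPKM + 1) values with its trend option. Genes entered where 3 or more fitted libraries reached an RPKM of 1. Genotypes were compared inside a table (6 libraries), and the interaction was fitted over 12. P-values were adjusted by Benjamini-Hochberg over every gene tested, and a gene was called under 0.05. The fits inside a table were tested on simulated data, and the interaction fit was not. Whole reads were recovered for all 18398 genes with reads (100%, tolerance 0.02 reads) and used for depth and for an alternative fit. Depth was lower in the DSS libraries, so low genes such as Enpep are less precise there. The alternatives changed the pseudocount, filter, scaling, variance model, length trend, replicate block and libraries.

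The 9 genes and the gene lists were chosen with earlier results of these data known. The text names all 9 genes, the called genes of each context list, otherwise the 2 with the smallest p, and the 2 most alike genes, except that a gene of the context lists is not reported here; the marker genes and the genes named for their level were chosen after their values were seen. Positions are 1-based, from GENCODE vM21 on GRCm38, and promoters are from RefSeq on GRCm38.p6.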

Additional observations from a re-analysis of the deposited data

Results flagged for a closer look

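Of the 8 hydrolases tested, Enpep was flagged because its KO minus WT difference differed between the DSS and untreated tables by limma's test of the interaction (2.32 on the log2 scale, limma adjusted p 0.0352). Its KO libraries were lower than WT in 3 of 3 untreated and higher in 3 of 3 DSS libraries, and the call held in 3 of 12 fits that left out a library.

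Among the genes named beside the hydrolases, the same test flagged Tmigd1 (1.88, limma adjusted p 0.0356), Slc1a1 (-0.93, 0.0380), Slc36a1 (-1.46, 0.0364), Hoxa13 (-1.04, 0.0342), Fabp2 (1.35, 0.0356), Slc10a2 (1.498, 0.0356) and C1qa (1.91, 0.0479). These 7 calls held in 2 to 4 of 12 fits that left out a library, and with no filter on low values each was lost (adjusted p 0.0716 to 0.0985). DSS and the library set cannot be told apart in any of them.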

How the results depend on the processing

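Enpep, Anpep, Ace, Mep1a, Alpi and Sis kept the direction of each of their 3 differences under every setting run. Dpp4 turned to 0.0422 (untreated), 0.0855 (DSS) and 0.0404 (interaction) with a length trend taken out. With a library left out it ran from -0.191 to 0.00443 under DSS, positive without KO library 2, and from -0.156 to 0.0395 in the interaction, positive without WT DSS library 2 or KO DSS library 2. Mep1b in untreated mice ran from -0.0875 to 0.0337, positive without WT library 3 or KO library 4. The cause was not tested.

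Counts over all genes moved more than those of the hydrolases. With no filter on low values, 1 gene was called in untreated mice, 1 under DSS and 4 in the interaction, in place of 2, 84 and 158, and 0 hydrolases in the interaction in place of 1. That fit tests more genes. With a length trend taken out, 44 genes were called under DSS. With a library left out, the counts ran from 2 to 6, from 1 to 364 and from 1 to 433, and those of the hydrolases from 0 to 2 under DSS and in the interaction. Fewer samples enter those fits. voom on recovered reads, an alternative chosen after seeing the data, called 2 hydrolases in the interaction.

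The replicate block for the DSS libraries called 398 genes under DSS and 328 in the interaction, with 2 hydrolases (Enpep 0.00343 and Ace 0.0175, limma adjusted p) and 3 (Enpep 0.0227, Ace 0.0356 and Alpi 0.0497). The numbers were not taken to pair the libraries, since deviations of same-numbered DSS libraries had correlations of -0.11, 0.36 and 0.13, and not every library correlated best with its own number. In the untreated table no paired analysis was possible because its groups share only number 2. The planned fits with edgeR and DESeq2 were not run, since the deposited unit is RPKM. Depth limits Lct, at 0 to 2 reads per library, and the WT DSS values of Enpep, at 25 to 121 reads.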
